A study of Homo sapiens with 24 samples.

Results

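The genes that encode the metallothioneins were followed with the zinc-sensing transcription factor MTF1 and the zinc exporter SLC30A1 in human cancer cell lines in which the DNA-binding domain (DBD) of a noncoding transcript had been deleted with CRISPR/Cas9. The 10 genes were MT1A, MT1E, MT1F, MT1G, MT1H, MT1M, MT1X, MT2A, MTF1 and SLC30A1, out of 60641 gene symbols with a count in the tables of all libraries. They were chosen by name with their levels in the 24 libraries known, as CPM (counts scaled to the library total), so their levels and fold changes are given as a description. Where the number of metallothioneins past the thresholds of a fit over all genes is given, it stands beside the share of all genes past them, and nothing is read from it in any comparison. Where groups are said not to overlap, the share of all genes without overlap is not given, and nothing is read from that either. Adjusted p-values are printed only for other genes of metal handling and of neighbouring loci.

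The cells were A549, a lung adenocarcinoma line, and HCT116, a colorectal carcinoma line. A549 made up 3 groups and HCT116 made up 5, each with 3 libraries. In A549, the DBD of MSTRG.2513.6 or of MSTRG.4401.1 was knocked out, and both knockouts (KO) had the wild-type set labelled B (WT B) as control. In HCT116, KO of the DBD of MSTRG.2513.6 or of MSTRG.4401.1 stood against WT B of that line, and KO of the DBD of MSTRG.34636.7 against a separate wild-type set, WT A. Comparisons within a line that use the same wild-type libraries are not independent. No treatment or metal supplement is named for any group. The labels do not say whether the libraries of a group came from separate cultures or from 1 edited clone, so the spread between them may be technical. The deleted domains were not measured here, and no library could be checked for its own knockout from these gene counts.

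Total counts ran from 25799359 to 102261808 per library, so that 3 counts, the limit that a count of 0 allows, stood for 0.0293 to 0.116 CPM. The A549 MSTRG.4401.1 KO had the shallowest libraries of any group, at 25799359 to 33205007 counts, and also the highest shares of mitochondrially encoded RNA, 3.50 to 7.87% against 1.59 to 2.37% in the other 6 A549 libraries. In the HCT116 MSTRG.2513.6 KO group, which holds S8, S9 and S11, S8 and S9 resembled A549 rather than HCT116. The summed CPM of 8 A549 marker genes was 12169 to 12259 in S8 and S9, against 9134 to 13071 in A549 and 4.90 to 10.1 in the other 13 HCT116 libraries. CDKN2A, which A549 cells have lost, was at 0 in A549, at 0.215 to 0.530 CPM in S8 and S9, and at 37.0 to 59.6 CPM in the other HCT116 libraries. Of the colon markers, CDX2 was at 13.9 to 23.6 CPM in those 13 libraries, against 0 to 1.203 CPM in A549 and 0.406 to 0.636 CPM in S8 and S9. CDH17 went the other way, at 0.116 to 1.76 CPM in the 13 libraries, 5.21 to 16.3 CPM in A549 and 5.21 to 7.40 CPM in S8 and S9. AXIN2 overlapped between the lines, and CDX1, GPA33, LGR5 and ASCL2 were under 0.5 CPM in all 24 libraries. The labels were kept, and each result that rests on S8 and S9 is given with and without them.

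Metallothioneins are small cysteine-rich proteins that bind zinc, copper and cadmium through their thiol groups. When free zinc rises, MTF1 enters the nucleus and binds metal response elements in the promoters of metallothionein genes and of SLC30A1, which moves zinc out of the cell. Glucocorticoids and oxidative stress induce several of these genes too, and the number of active MT1 genes is known to differ between cell types.

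The 8 metallothionein genes lie within 75613 bases of chromosome 16 (GRCh38, 56608584 to 56684196). MTF1 (37809574 to 37859592) and SLC30A1 (211571568 to 211579161) lie on chromosome 1, on the minus strand. The coding sequences of MT2A, MT1X, MT1E and MT1F, each of 186 bases, are shown because the findings turn on telling these copies apart. They are from the GENCODE annotation on GRCh38, all on the plus strand and spanning the introns given by the coordinates, with capitals at each base that differs from MT2A.
MT2A, chr16:56608656-56609354: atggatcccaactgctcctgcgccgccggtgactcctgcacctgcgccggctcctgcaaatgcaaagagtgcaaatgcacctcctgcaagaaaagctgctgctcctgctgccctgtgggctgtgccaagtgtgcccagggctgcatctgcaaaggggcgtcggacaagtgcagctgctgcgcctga
MT1X, chr16:56682541-56684049: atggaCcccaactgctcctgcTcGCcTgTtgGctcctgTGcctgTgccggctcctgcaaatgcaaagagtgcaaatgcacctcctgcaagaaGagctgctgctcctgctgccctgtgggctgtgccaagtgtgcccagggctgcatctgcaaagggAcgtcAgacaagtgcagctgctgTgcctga
MT1E, chr16:56625852-56626971: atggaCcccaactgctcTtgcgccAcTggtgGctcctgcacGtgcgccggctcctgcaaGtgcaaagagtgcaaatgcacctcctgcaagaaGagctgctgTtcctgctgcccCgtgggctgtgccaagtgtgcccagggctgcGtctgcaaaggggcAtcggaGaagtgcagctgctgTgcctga
MT1F, chr16:56658059-56659164: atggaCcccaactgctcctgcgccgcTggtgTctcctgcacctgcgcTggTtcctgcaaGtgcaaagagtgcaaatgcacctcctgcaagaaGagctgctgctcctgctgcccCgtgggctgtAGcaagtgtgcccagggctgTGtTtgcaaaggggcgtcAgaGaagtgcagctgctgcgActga
MT1X and MT1E each differed from MT2A at 14 of the 186 bases, and MT1F differed at 16. Over the 21 pairs of the 7 genes compared, coding identity was 88.7 to 95.2%, with a median of 91.9%. The longest identical stretch of a pair of transcripts was 32 to 96 bases. How the counting placed reads that match several copies is not given in the sources used here, so each MT1 count carries that uncertainty.

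The promoters of MT2A, MT1X and SLC30A1 are shown because these genes carry the levels described next and are textbook MTF1 targets. The sequences are RefSeq windows (GRCh38.p14) from 250 bases before to 50 bases after the annotated start, and RefSeq windows were matched for 5 of the 10 genes. Capitals mark matches, on either strand, to the 7-base metal response element core written as TGCACNC or TGCGCNC.
MT2A, chr16:56608334-56608633, plus strand: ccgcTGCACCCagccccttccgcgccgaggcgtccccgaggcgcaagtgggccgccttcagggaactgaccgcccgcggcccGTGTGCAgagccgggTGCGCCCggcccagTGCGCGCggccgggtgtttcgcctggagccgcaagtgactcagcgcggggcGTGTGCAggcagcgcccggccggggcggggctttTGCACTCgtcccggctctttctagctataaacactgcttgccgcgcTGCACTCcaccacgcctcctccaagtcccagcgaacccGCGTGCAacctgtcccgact
MT1X, chr16:56682220-56682519, plus strand: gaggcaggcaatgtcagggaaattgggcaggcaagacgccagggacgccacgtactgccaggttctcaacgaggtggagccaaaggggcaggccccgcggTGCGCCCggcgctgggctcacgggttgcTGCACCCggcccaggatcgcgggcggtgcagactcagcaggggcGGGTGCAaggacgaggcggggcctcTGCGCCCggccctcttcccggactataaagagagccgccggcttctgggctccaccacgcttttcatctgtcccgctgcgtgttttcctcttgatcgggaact
SLC30A1, chr1:211579112-211579411, minus strand: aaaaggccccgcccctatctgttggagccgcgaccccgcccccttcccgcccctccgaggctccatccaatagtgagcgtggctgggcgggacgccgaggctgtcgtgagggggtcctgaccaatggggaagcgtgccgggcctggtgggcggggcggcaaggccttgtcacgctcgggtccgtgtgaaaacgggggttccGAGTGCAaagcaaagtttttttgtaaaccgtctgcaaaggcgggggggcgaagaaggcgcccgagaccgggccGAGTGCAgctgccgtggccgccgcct
MT2A held 8 matches, MT1X held 4 and SLC30A1 held 2, while MT1H held 8 and MTF1 held 0. Of 35116 promoter windows of the same length, 29.6% held at least 1 match, 8.60% at least as many as SLC30A1, 0.601% at least as many as MT1X and 0.0199% at least as many as MT2A. The core is short, and a match is a description of the letters only.

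MT2A, which encodes the most widely expressed metallothionein, was counted in every library. In A549 WT B it was at 53.6, 45.7 and 31.1 CPM. In the A549 MSTRG.2513.6 KO it was at 46.6, 39.5 and 47.1 CPM, all within the wild-type range. In the A549 MSTRG.4401.1 KO it was at 12.8, 8.95 and 7.13 CPM, with all 3 libraries below every other library of the series. HCT116 WT B had 116, 134 and 141 CPM, and the HCT116 MSTRG.4401.1 KO had 152, 163 and 136 CPM, which overlapped. HCT116 WT A stood highest, at 286, 246 and 236 CPM. The MSTRG.34636.7 KO had 117, 114 and 130 CPM, below WT A but within the range of WT B or just under it. In the HCT116 MSTRG.2513.6 KO, S11 had 75.5 CPM, and S8 and S9 had 59.4 and 55.0 CPM, just above the A549 range. The order of the group means was thus A549 MSTRG.4401.1 KO, then A549 WT B and MSTRG.2513.6 KO together, HCT116 MSTRG.2513.6 KO, then HCT116 MSTRG.34636.7 KO, WT B and MSTRG.4401.1 KO with overlapping neighbours, and HCT116 WT A.

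MT1X, a second broadly expressed copy, followed a like order at a lower level. It was at 11.8, 11.5 and 10.3 CPM in A549 WT B and at 11.03, 10.3 and 8.84 CPM in the MSTRG.2513.6 KO. The A549 MSTRG.4401.1 KO had 5.36, 3.29 and 3.01 CPM, again below all other libraries. HCT116 WT B had 22.3, 20.7 and 22.97 CPM, and the MSTRG.4401.1 KO had 33.3, 34.1 and 28.6 CPM, with no overlap. HCT116 WT A was at 40.8, 22.04 and 23.5 CPM, 1 library well above the other 2. The MSTRG.34636.7 KO was at 18.3, 17.3 and 19.3 CPM, under both wild-type sets. S11, S8 and S9 lay close together, at 12.4, 12.1 and 11.4 CPM.

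MT1E separated the lines. In A549 it had no counts in 8 of 9 libraries and 4 counts (0.0679 CPM) in the ninth, S20 of WT B. In HCT116, leaving S8 and S9 aside, it was at 57.1 to 349 CPM in the remaining 13 libraries, from 2076 to 33633 counts. HCT116 WT B had 173, 194 and 194 CPM, the MSTRG.4401.1 KO 242, 252 and 229 CPM, and neither set overlapped the other. WT A had 349, 277 and 329 CPM, and the MSTRG.34636.7 KO 129, 133 and 141 CPM, below both wild-type sets. S11 had 57.1 CPM, lower than in the 12 other HCT116 libraries of that set, whereas S8 and S9 had 8 counts each (0.170 and 0.191 CPM).

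MT1A was counted in A549 outside the MSTRG.4401.1 KO and in S8 and S9, where MT1E had at most 8 counts. It was at 1.70, 1.73 and 1.54 CPM in A549 WT B and at 3.05, 1.90 and 2.10 CPM in the A549 MSTRG.2513.6 KO. All 3 A549 MSTRG.4401.1 KO libraries had 0 counts, which allows up to 0.116 CPM at their depth. The same 13 HCT116 libraries had 0 counts as well, but S8 had 117 counts (2.48 CPM) and S9 had 85 counts (2.03 CPM). For both MT1A and MT1E, S8 and S9 therefore stood with A549 and S11 with HCT116.

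The other MT1 genes were low or not detected. MT1F was at 0.589 to 2.16 CPM in A549 and at 2.79 to 4.42 CPM in the 13 HCT116 libraries, from 27 to 409 counts per library. MT1G and MT1H had 0 counts in all 24 libraries, although the MT1H promoter window held as many core matches as that of MT2A. MT1M had 4 counts in 1 library, MSTRG.34636.7 KO 2A, and 0 in the other 23. Not detected here means below the limit of 0.0293 to 0.116 CPM that a count of 0 allows. None of the other MT genes and pseudogenes on the list (MT1B, MT1L, MT1JP, MT1DP, MT1CP, MT1XP1, MT3 and MT4) passed the filter on low counts within A549. In HCT116 the pseudogene MT1DP did so in 2 comparisons and passed the threshold in neither. MT1B is a protein-coding gene inside the cluster that was not among the members.

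MTF1, the transcription factor, differed between the lines more than within them. It was at 19.3 to 26.7 CPM in the 9 A549 libraries and at 45.9 to 71.3 CPM in the 13 HCT116 libraries, with no overlap. S8 and S9 had 18.7 and 19.3 CPM, and S11 had 68.9 CPM. Within A549, WT B had 20.7, 22.8 and 23.8 CPM, the MSTRG.2513.6 KO 20.8, 20.3 and 19.3 CPM, and the MSTRG.4401.1 KO 26.7, 24.1 and 22.7 CPM. Each KO overlapped WT B, although the KOs did not overlap each other, so the low MT2A, MT1X and MT1A counts of the MSTRG.4401.1 KO stood beside MTF1 counts within or just above the wild-type range.

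SLC30A1, the exporter, did not separate the lines, at 34.8 to 91.2 CPM in A549 and 43.3 to 64.6 CPM in the 13 HCT116 libraries. A549 WT B had 56.5, 72.0 and 68.5 CPM. The A549 MSTRG.2513.6 KO was higher, at 91.2, 85.9 and 78.2 CPM, and the MSTRG.4401.1 KO lower, at 54.8, 34.8 and 55.5 CPM, neither overlapping WT B. HCT116 WT B had 50.2, 45.8 and 43.3 CPM and the MSTRG.4401.1 KO 61.9, 57.3 and 63.0 CPM, higher without overlap. WT A had 64.6, 59.6 and 54.5 CPM and the MSTRG.34636.7 KO 48.4, 50.1 and 48.2 CPM, lower without overlap. S11 had 48.0 CPM, near WT B, and S8 and S9 had 89.7 and 80.4 CPM, within the range of the A549 MSTRG.2513.6 KO.

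**Figure D1:**
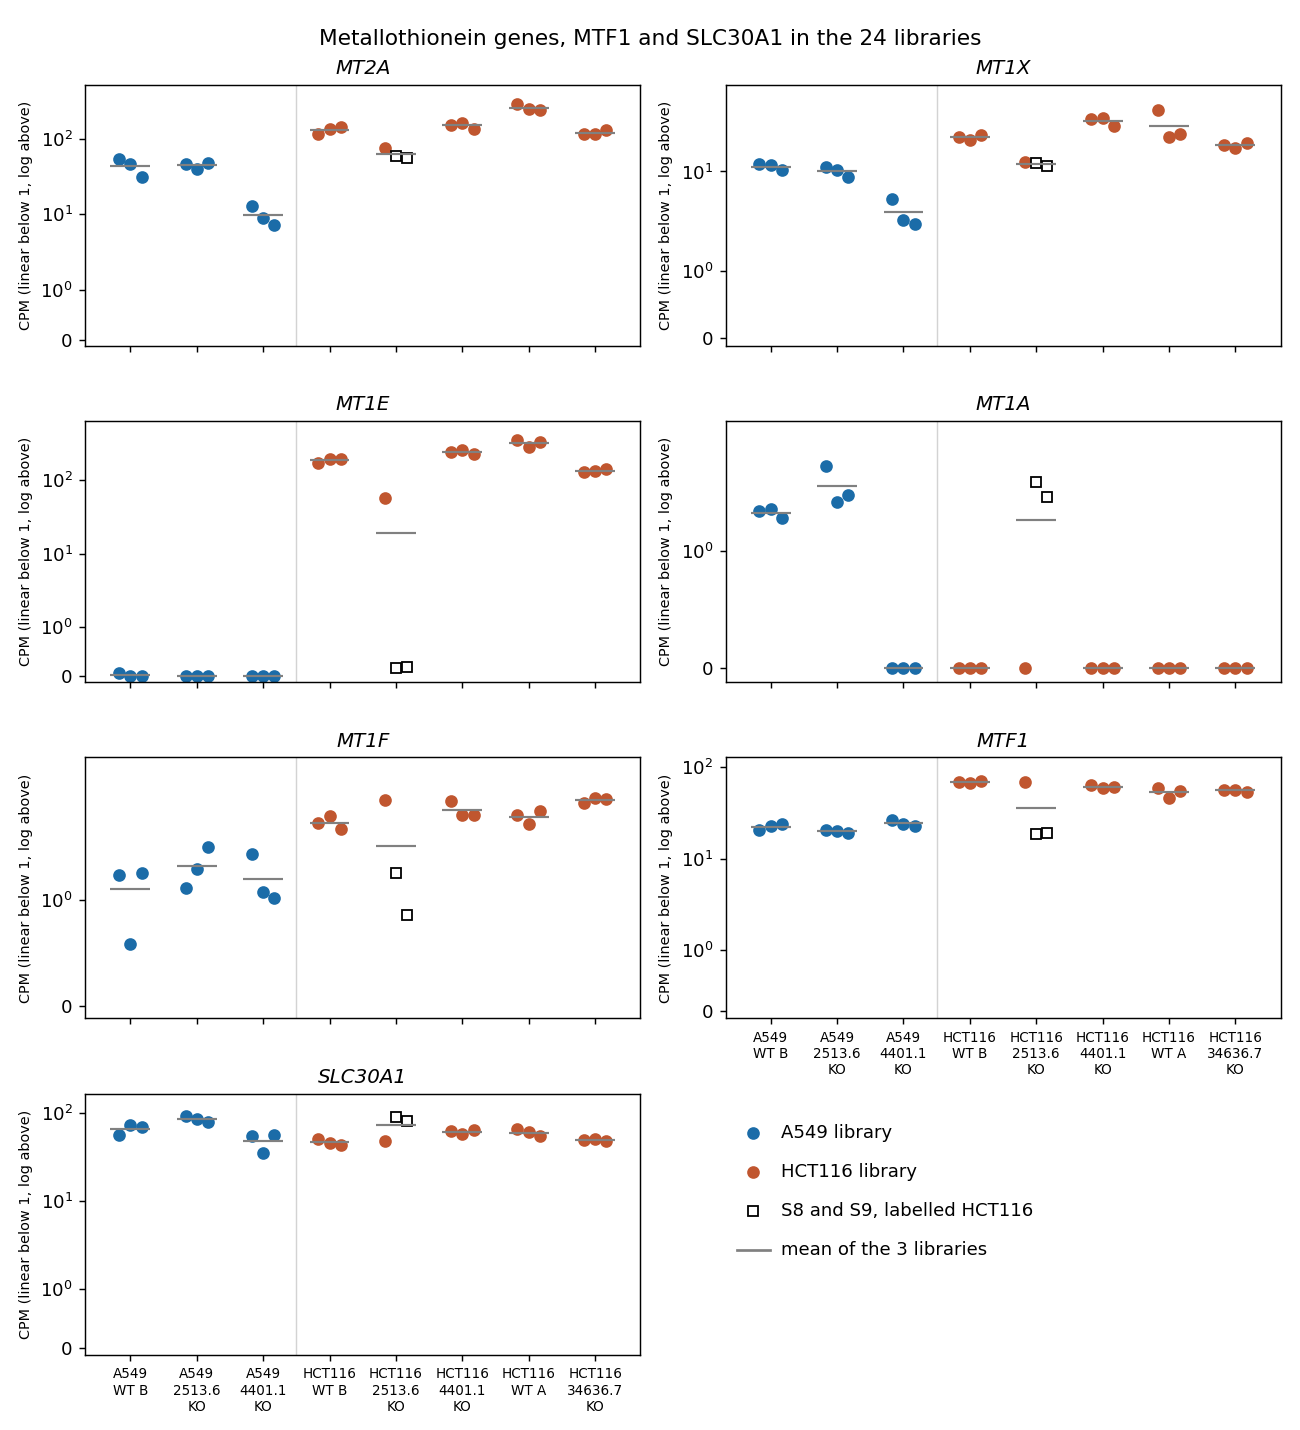
CPM of the 7 members with counts in more than 1 library, 1 panel per gene and 1 point per library, with groups on the x axis, the group mean as a grey line and an axis that is linear below 1 CPM and logarithmic above. MT2A and MT1X lie lowest in the A549 MSTRG.4401.1 KO, MT1E is at 57.1 to 349 CPM only in the HCT116 groups with S8 and S9 left aside, and S8 and S9 (open squares) have MT1A, MT1E, MTF1 and SLC30A1 near the A549 levels.

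To compare the metallothioneins with each other, CPM was divided by the length of the canonical transcript in kilobases. On this per-length scale, MT2A was the largest part of the metallothionein signal in every library. That ranking depends on the length used, as the canonical transcript has 746 bases for MT1E and 401 for MT2A. In CPM without the division, MT1E was above MT2A in every HCT116 library outside the MSTRG.2513.6 KO. The means in HCT116 WT B were 187 CPM for MT1E and 130 CPM for MT2A. Per length, MT2A made up 70.3 to 78.5% of the summed level in the A549 libraries other than the MSTRG.4401.1 KO. It made up 46.8 to 61.6% in the 13 HCT116 libraries. MT1E made up 25.1 to 42.3% in those HCT116 libraries and at most 0.0534% in A549. In A549 the second part was MT1X, at 14.6 to 23.02%, against 5.21 to 10.4% in HCT116. In the A549 MSTRG.4401.1 KO the share of MT2A was 64.0 to 67.4%, that of MT1X 24.6 to 27.0% and that of MT1F 7.98 to 9.26%, so the copies were not lower by the same factor. S8 and S9 had 78.8 and 79.4% MT2A with 3.33 and 2.96% MT1A, and S11 had 25.1% MT1E. MTF1, per kilobase, was at 2.83 ± 0.202 (SD, n = 3) in A549 WT B and 8.75 ± 0.275 in HCT116 WT B, where MT2A was at 108 ± 28.4 and 325 ± 32.9.

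**Figure D2:**
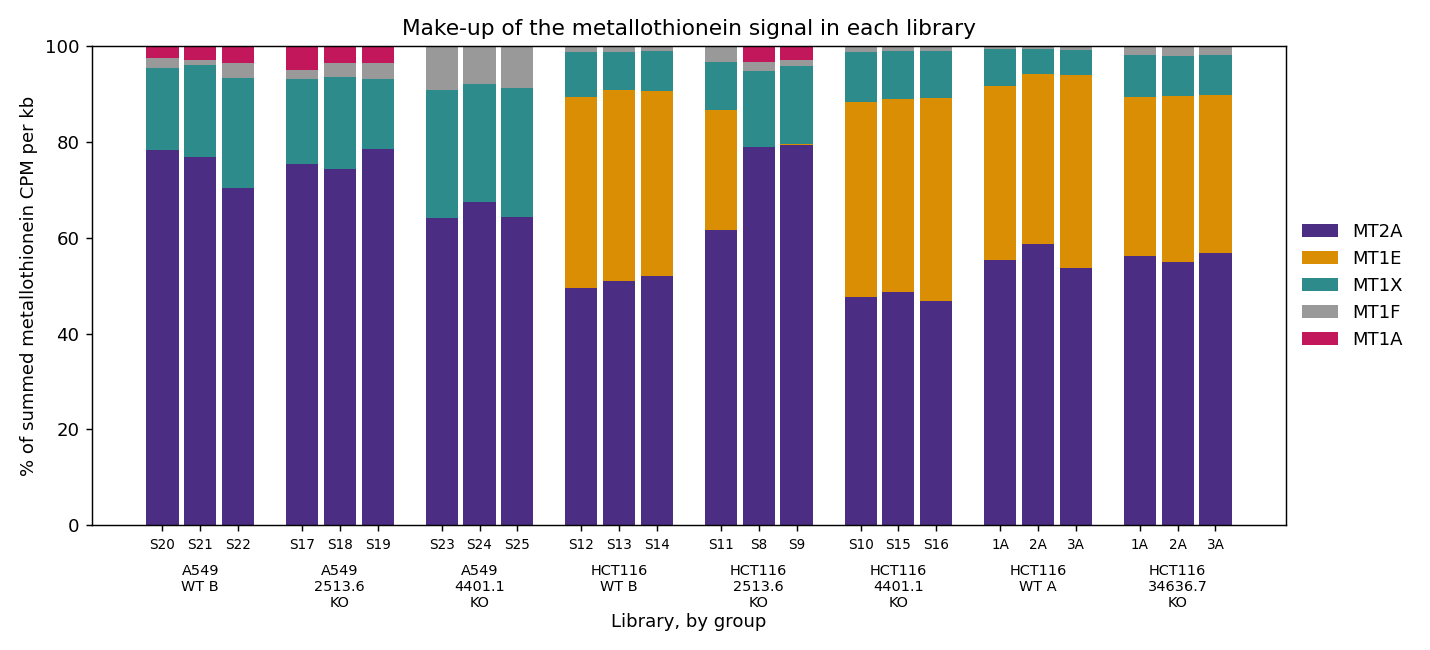
Make-up of the metallothionein signal in each of the 24 libraries, as the percent of the summed CPM per kilobase of canonical transcript, with 1 stacked bar per library in the order of groups. MT1E fills 25.1 to 42.3% of the bar in HCT116 outside S8 and S9 and is all but missing in A549, where MT1A fills 2.51 to 5.002% outside the MSTRG.4401.1 KO.

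The KO of the MSTRG.4401.1 DBD in A549 went with the lowest metallothionein levels. The summed CPM of the 8 genes was 11.2 to 20.1 in the KO and 44.4 to 68.6 in WT B. The log2(fold change) was −2.28 ± 0.27 (SE) for MT2A (9.62 ± 2.88 against 43.5 ± 11.4 CPM, SD, n = 3) and −1.61 ± 0.24 for MT1X (3.89 ± 1.28 against 11.2 ± 0.808 CPM). MT1A was at least 15.5-fold lower, taking 3 counts per library in place of its 0 counts. MT1F differed little, at 0.15 ± 0.43, as did MTF1, at 0.05 ± 0.11, and SLC30A1 was at −0.51 ± 0.18. Of the 4 metallothioneins tested, 3 passed |log2(fold change)| >1 with FDR <0.1, all lower, where 15.4% of all genes tested did. Their median was −1.94, against 0.12 over all genes tested. The same KO libraries had the lowest depth and the highest shares of mitochondrial RNA in A549, and 4.89 to 7.21% of their counts came from the signal recognition particle RNA RN7SL1, against 1.89 to 4.87% in the other A549 libraries. The part of these differences in the metallothionein result was not tested. Less of a transcript per cell and fewer cells that express it cannot be told apart in bulk libraries.

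In HCT116, metallothionein levels in the MSTRG.4401.1 DBD KO were at or above those of WT B. The log2(fold change) was 0.53 ± 0.09 for MT1X, 0.35 ± 0.07 for MT1E, 0.25 ± 0.17 for MT1F and 0.19 ± 0.10 for MT2A. SLC30A1 was at 0.38 ± 0.07 and MTF1 at −0.19 ± 0.05. None of the 4 metallothioneins tested passed both thresholds, where 2.62% of all genes did. The summed CPM was 397 to 453 in the KO and 314 to 361 in WT B. Against WT A in place of WT B, MT2A was at −0.78, MT1E at −0.42 and MT1X at 0.14, so the direction for MT2A and MT1E depended on the wild-type set.

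In the A549 MSTRG.2513.6 KO, MT2A and MT1X were close to WT B, with log2(fold changes) of 0.01 ± 0.22 and −0.16 ± 0.17. MT1A was at 0.50 ± 0.26, MT1F at 0.47 ± 0.39, MTF1 at −0.15 ± 0.11 and SLC30A1 at 0.38 ± 0.12. None of the 4 metallothioneins tested passed both thresholds, where 2.92% of all genes did.

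The HCT116 MSTRG.2513.6 KO group mixed S11 with the A549-like S8 and S9. With all 3 libraries, the log2(fold change) was −3.37 ± 2.00 for MT1E, −0.86 ± 0.13 for MT2A, −0.67 ± 0.18 for MT1X, −0.41 ± 0.51 for MT1F, −0.88 ± 0.43 for MTF1 and 0.90 ± 0.35 for SLC30A1. None of the 4 metallothioneins tested passed both thresholds, where 0.933% of all genes did. Without S8 and S9, S11 alone could be set against WT B in a fit over the other HCT116 libraries, which assumes that a lone library varies like the other groups. MT1E was then at −1.83 ± 0.19, MT1X at −0.94 ± 0.31, MT2A at −0.90 ± 0.18 and MT1F at 0.35 ± 0.24, whereas MTF1 was at −0.13 and SLC30A1 at −0.07. In that fit MT1E, 1 of the 4 metallothioneins tested, passed both thresholds, where 6.17% of all genes did. The lower MT2A and MT1X levels were thus as large without S8 and S9, MT1F changed sign, and the differences in MTF1 and SLC30A1 rested on these libraries.

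In the HCT116 MSTRG.34636.7 KO, MT1E was at −1.25 ± 0.15 against WT A (134 ± 6.34 against 318 ± 37.1 CPM, SD, n = 3). MT2A was at −1.09 ± 0.14 (120 ± 8.71 against 256 ± 26.6 CPM), MT1X at −0.66 ± 0.24 and MT1F at 0.34 ± 0.20. MTF1 was at 0.05 ± 0.14 and SLC30A1 at −0.29 ± 0.12. MT1E and MT2A, 2 of the 4 metallothioneins tested, passed both thresholds, where 1.34% of all genes did. Set against WT B, MT2A was at −0.13 and MT1E at −0.50, and neither passed the fold-change threshold. The wild-type sets themselves differed. WT A over WT B was at 0.96 ± 0.14 for MT2A, 0.76 ± 0.15 for MT1E, 0.38 ± 0.24 for MT1X and 0.12 ± 0.21 for MT1F, with MTF1 at −0.38 ± 0.14 and SLC30A1 at 0.35 ± 0.12. None of the 4 metallothioneins passed both thresholds there, where 7.06% of all genes did.

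**Figure D3:**
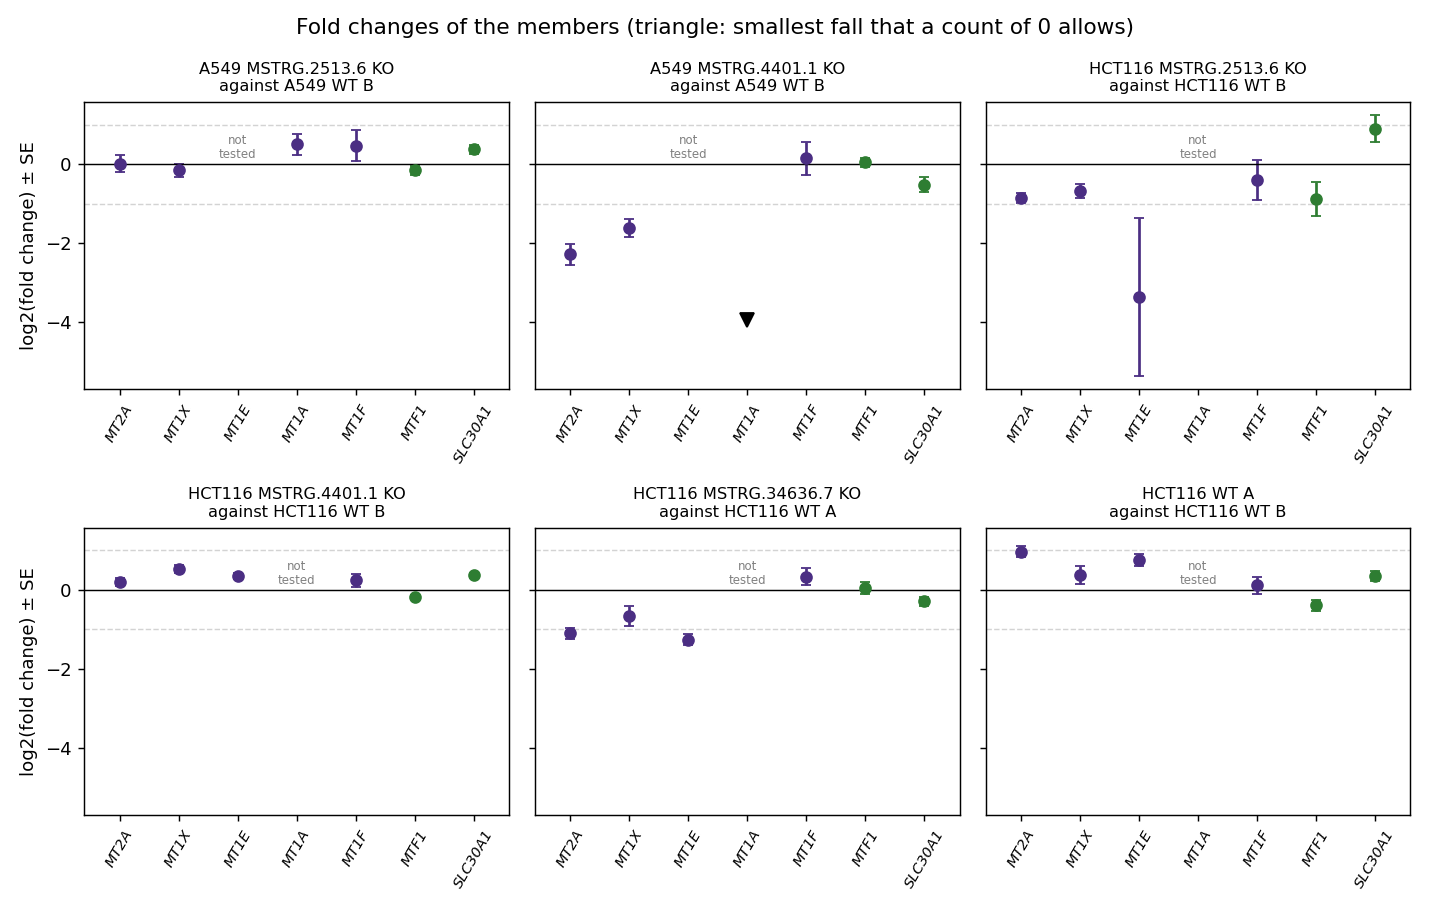
Log2(fold change) ± SE of the 7 members in the 6 comparisons, 1 panel each, with dashed lines at −1 and 1, metallothioneins in purple and MTF1 and SLC30A1 in green. MT2A and MT1X are lowest in the A549 MSTRG.4401.1 KO (−2.28 and −1.61), and the triangle marks the bound for MT1A from its counts of 0.

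Levels of the members were also compared across libraries within each line. In the 9 A549 libraries, MT1X and MT2A had a Pearson r of 0.97 on log2(CPM + 1), and MT2A and SLC30A1 an r of 0.73. In the 13 HCT116 libraries, MT1E and MT2A had an r of 0.91, MT1X and MT2A 0.70, and MT2A and SLC30A1 0.61. MTF1 had an r with MT2A of −0.67 in A549 and −0.53 in HCT116, and with MT1X of −0.51 and −0.05. MT1F did not follow the others, with an r with MT2A of 0.09 in A549 and −0.41 in HCT116, and with MT1E of −0.50 in HCT116. These libraries share groups and depth, and how reads that match several copies were counted is not given. The values are thus descriptions without a test. Outside the members, the 5 genes of 19033 with the pattern most like the summed metallothionein CPM over the 24 libraries were SENP2, RAP2B, MRPS22, ZNF724 and ZNF275, with r from 0.964 to 0.982. SENP2, a SUMO protease, was at 22.6 to 34.7 CPM in A549 and 50.2 to 61.5 CPM in the 13 HCT116 libraries. Over the 9 A549 libraries alone r was 0.84 to 0.97. Over the 15 libraries labelled HCT116 it was 0.89 to 0.94, and over the 13 without S8 and S9 it was 0.66 to 0.82.

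Other genes of metal handling were tested from lists of zinc exporters (SLC30 family), zinc importers (SLC39 family), copper handling, and metal- and stress-inducible genes. Further lists held glucocorticoid-induced genes, neighbours of the metallothionein cluster, and the other metallothionein genes and pseudogenes named above. Of the 73 genes on these lists, 72 were among the symbols counted. The lists, like the members, were chosen with earlier results of these data known. In the A549 MSTRG.4401.1 KO, more of these genes were lower than higher. Of 56 tested, 33 fell and 6 rose at FDR <0.1 alone in edgeR's quasi-likelihood test, where 22.4% of all genes fell. Of all 24979 genes tested, 5329 rose. The median over the lists was −0.39, against 0.12 over all genes. Importers fell in 8 of 12, copper genes in 8 of 11, metal- and stress-inducible genes in 7 of 10, exporters in 4 of 6, neighbours in 5 of 8 and glucocorticoid-induced genes in 1 of 9. These counts depended on scaling. With upper-quartile normalization the median of all genes moved to 0.28, 24 of the 56 fell and 9 rose, where 15.6% of all genes fell and 29.1% rose, and inducible genes fell in 3 of 10.

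Of the 56 list genes tested, 4 also passed the fold-change threshold in this KO, where 15.4% of all genes passed both thresholds. By both thresholds and in either direction, the list genes were thus not called more often than all genes. Of the 4, 3 were lower and 1 higher, where 1078 of all 24979 genes were called lower and 2764 higher. At FDR <0.1 alone, 33 of the 56 fell, where 22.4% of all genes did. SLC31A1, the high-affinity copper importer, fell from 59.5 to 63.6 CPM in WT B to 21.7 to 36.0 CPM (log2(fold change) −1.17 ± 0.17, adjusted p = 0.00221). SCO2, which delivers copper to cytochrome c oxidase, fell by 1.33 on the log2 scale (adjusted p = 0.0200), at 0.693 to 1.37 against 1.97 to 2.81 CPM. SLC31A2, a related copper transporter, fell by 1.16 (adjusted p = 0.0527) at levels under 1 CPM, a call that was lost in 5 of 10 alternatives, and SLC39A5, a zinc importer, rose by 1.14 (adjusted p = 0.0830), lost in 6 of 11. In HCT116 the MSTRG.4401.1 KO had 0 of 57 list genes past both thresholds in edgeR's test, where 2.62% of all genes passed. At FDR <0.1 alone 19 passed, where 2016 of all 26615 genes were higher and 2320 lower. In edgeR's test 26 had an unadjusted p under 0.05, where 6836 of all genes did. DESeq2 called 0 list genes at both thresholds, where it called 247 of all genes higher and 376 lower. The difference between the lines was tested as an interaction. Of all 30134 genes tested, 26.9% differed at FDR <0.1, 4626 more negative and 3490 more positive in A549. Of 58 list genes, 28 differed at that threshold, 25 of them more negative in A549. SLC31A1 was among them, at −1.21 ± 0.21 (adjusted p = 0.00199), as was the importer SLC39A14, at −0.76 ± 0.11 (adjusted p = 0.000889).

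**Figure D4:**
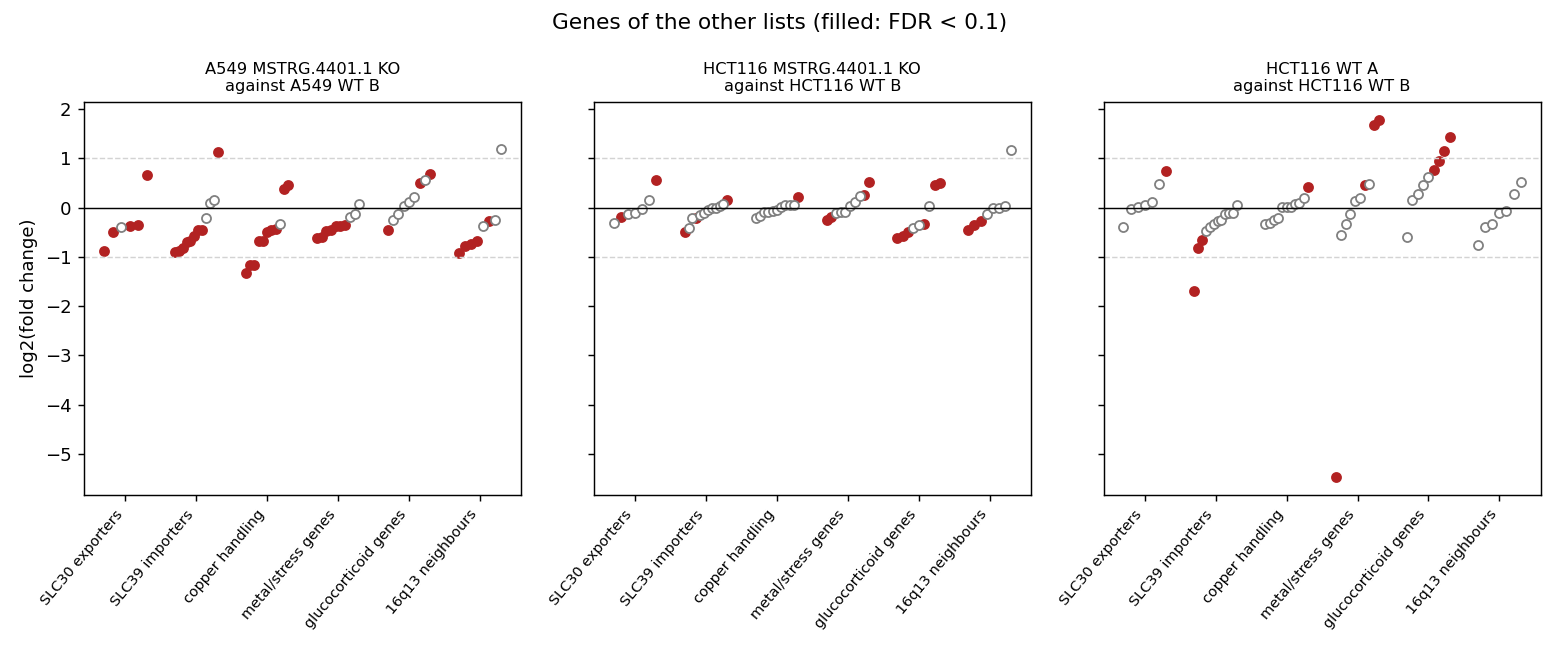
Log2(fold change) of the genes of 6 lists, 1 point per gene, in the MSTRG.4401.1 KO of A549 and of HCT116 and in HCT116 WT A against WT B, with genes at FDR <0.1 filled and dashed lines at −1 and 1. In A549, 33 of the 56 points are filled and below 0, and in the wild-type comparison HSPA1A stands alone at −5.47.

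Few list genes passed both thresholds elsewhere. In the A549 MSTRG.2513.6 KO 2 of 56 did, against 2.92% of all genes. The HCT116 MSTRG.34636.7 KO had 2 of 57, against 1.34%, and the HCT116 MSTRG.2513.6 KO had 1 of 58, against 0.933%. In the A549 MSTRG.2513.6 KO, GCLM, a subunit of the enzyme that starts glutathione synthesis, rose by 1.12 ± 0.19 (adjusted p = 0.0186; 131 to 155 against 55.3 to 85.6 CPM), a call lost without WT B S22. NLRC5, a regulator of MHC class I genes on the list of neighbours, rose by 1.21 ± 0.18 (adjusted p = 0.0116). In the HCT116 MSTRG.34636.7 KO, the zinc importer SLC39A10 rose by 1.28 ± 0.23 (adjusted p = 0.0576), from 45.5 to 86.7 CPM in WT A to 157 to 162 CPM, beside lower MT1E and MT2A. That call was lost when any 1 of the KO libraries was left out. SLC39A10 also rose in the HCT116 MSTRG.2513.6 KO group, by 1.29 ± 0.14 (adjusted p = 0.0687), a call lost without S8, without S9, without any 1 WT B library and with no filter on low counts. S11 alone, in the fit without S8 and S9, gave 1.03 ± 0.24. SLC39A10 did not stand alone in that fit, where the zinc exporter SLC30A4 was at 1.14 and the importer SLC39A3 at −0.91. PER1, a glucocorticoid-induced clock gene, rose by 1.02 ± 0.21 (adjusted p = 0.0759) in the MSTRG.34636.7 KO but was lost in 8 of 14 alternatives.

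Between the HCT116 wild-type sets, 6 of the 57 list genes tested passed both thresholds, where 7.06% of all genes did. HSPA1A, a heat shock chaperone with a near-identical copy HSPA1B, was at 0.890 to 5.30 CPM in WT A and 113 to 121 CPM in WT B (−5.47 ± 0.57, adjusted p = 0.000679). In the MSTRG.34636.7 KO it was at 0.404 to 3.07 CPM. HSPA1B was at 86.7 to 229 CPM in WT A, 164 to 176 CPM in that KO and 217 to 226 CPM in WT B. How reads that match HSPA1A and HSPA1B were counted is not given, so the HSPA1A values carry that uncertainty. SLC39A1, a plasma membrane zinc importer, was at 17.2 to 27.8 CPM in WT A and 64.0 to 69.9 CPM in WT B (−1.69 ± 0.18, adjusted p = 0.000731). The calls of HSPA1A and SLC39A1 held in all 12 alternatives. The cystine transporter SLC7A11 (1.79 ± 0.43, adjusted p = 0.0426), GCLM (1.67 ± 0.50, adjusted p = 0.0868), TSC22D3 (1.45 ± 0.40, adjusted p = 0.0707) and KLF9 (1.16 ± 0.23, adjusted p = 0.0191) were higher in WT A, and each was lost in 2 to 7 of the 12. The MSTRG.34636.7 KO had SLC39A1 at 12.1 to 18.5 CPM, so all libraries labelled A were below the WT B range. MT2A and MT1E were high in WT A, whereas in that KO MT2A was near WT B. A link between SLC39A1 and the metallothioneins was not tested.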

How the data were processed

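RNA sequencing was done on 24 libraries of A549 and HCT116 cells after rRNA removal with a directional library kit. The authors deposited raw counts of reads per gene symbol for each library. Per the submitters' processing notes, Trim Galore 0.6.6, FastQC 0.11.9 and HISAT2 2.2.1 with hg38 were used, and StringTie per the methods of the study. The annotation release, the use of strand and the treatment of reads with several matches are not given in the sources used here. Only the 60641 symbols common to all libraries were kept, and 3 others were left out.

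CPM was computed on the total counts (25799359 to 102261808 per library) without further scaling. Fold changes, SEs and adjusted p-values came from edgeR 4.0.16 (R 4.3.3) with TMM, filterByExpr and the quasi-likelihood test, 1 fit per comparison over its 2 groups, with Benjamini-Hochberg adjustment over all genes tested. Genes were called at FDR <0.1 with |log2(fold change)| >1. Alternatives were DESeq2 1.42.0, upper-quartile scaling, a minimum of 10 counts or no filter at all, leaving out each library, 1 fit per line, the other wild-type set, the replicate block and no fold-change threshold. The scripts were tested on simulated data. Likeness to the members was Pearson's r of log2(CPM + 1) among genes with a mean of at least 1 CPM.

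All 10 members are named, then up to 3 called genes per list and comparison, then the 5 genes most like the summed metallothioneins. A few further list genes were named after their values were seen. Members and lists were chosen with earlier results of these data known. Floors cover counting error only, whereas SEs include the fitted spread between libraries and SDs are taken between libraries. Coding sequences came from GENCODE v44 and promoters from RefSeq (GRCh38.p14). The coding sequence of MT1A is not reported here and was left out of the comparison of coding sequences. Same-numbered libraries of the MSTRG.34636.7 KO and WT A had deviation correlations of only 0.0117 to 0.0355, though each was the highest for its number. Pairing was not settled, so the main fit treated them as unpaired, with the replicate block as an alternative.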

Additional observations from a re-analysis of the deposited data

Results flagged for a closer look

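Some list genes differed between A549 and HCT116 in their log2(fold change) in the MSTRG.4401.1 DBD KO, where 26.9% of all genes differed at FDR <0.1. The A549 KO libraries also had the lowest depth and the highest shares of mitochondrial RNA in A549. The part of these library differences in the result was not tested. The interaction term, as the log2(fold change) in A549 minus that in HCT116, was −1.21 for SLC31A1 (SE 0.21, adjusted p = 0.00199 by edgeR), −1.31 for SCO2 (SE 0.46, adjusted p = 0.0626), −1.25 for SLC31A2 (SE 0.45, adjusted p = 0.0690) and 1.51 for SLC39A5 (SE 0.59, adjusted p = 0.0964). The SLC31A1 term held in all 12 alternatives, with adjusted p from 0.000360 to 0.00758. SCO2 was lost in 5 of 12, SLC31A2 in 7 and SLC39A5 in 9.

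Among the members, MT1X and SLC30A1 were lower in every A549 MSTRG.4401.1 KO library than in any A549 WT B library, and higher in every HCT116 KO library than in any HCT116 WT B library. The difference in log2(fold change) between the lines was −2.14 for MT1X and −0.89 for SLC30A1. These differences were not tested, because the members were chosen on these libraries. In the interaction test, 26.9% of all genes differed between the lines at FDR <0.1. The share of all genes without overlap is not given, so nothing is read from the lack of overlap. Against WT A in place of WT B, the HCT116 value was 0.14 for MT1X and 0.02 for SLC30A1.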

How the results depend on the processing

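No metallothionein fold change that had passed 1 on the log2 scale changed sign. Of 442 member fold changes recomputed under alternatives, 28 moved by at least 1 SD, and TMM scaling moved 17 of 50 group means of CPM by as much. The median log2(fold change) of the metallothioneins was −1.94 in the A549 MSTRG.4401.1 KO (−2.35 with no filter). In the HCT116 KOs it moved with the wild-type set, from −0.77 to −1.48 for MSTRG.2513.6, from 0.30 to −0.15 for MSTRG.4401.1 and from −0.88 to −0.21 for MSTRG.34636.7, the last also to −0.64 with no filter. Leaving out 1 library at a time gave −1.0002 to −0.67 for MSTRG.34636.7, the latter without WT A 1A, and 0.39 to 0.72 for WT A against WT B, without WT A 1A and WT A 2A.

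Counts of called list genes were small and moved readily. Without 1 library they were 1 to 2 in the A549 MSTRG.2513.6 KO (1 without WT B S22), 2 to 5 in the A549 MSTRG.4401.1 KO (2 without KO S24 or WT B S20), 0 to 1 in the HCT116 MSTRG.4401.1 KO (1 without KO S10), 0 to 2 in the MSTRG.34636.7 KO (0 without any 1 KO library, 1 without WT A 1A or 3A) and 3 to 6 between the wild-type sets (3 without WT B S12 or S14 or WT A 1A). In the HCT116 MSTRG.2513.6 KO group without S11, 4900 of all 28577 genes tested were called higher and 5736 lower. List genes called in that group were 0 to 21, against 1 with all libraries. They were 21 without S11 and 0 without S8, S9 or any 1 WT B library. There, DESeq2 gave 11, no filter 0, a minimum of 10 counts 5, 1 fit for the line 13, the other wild type 3, and the fit without S8 and S9, added after the data were seen, 5. With the fold-change threshold dropped, counts were 9, 39, 2, 19 and 13 in the A549 MSTRG.2513.6, A549 MSTRG.4401.1, HCT116 MSTRG.2513.6 and HCT116 MSTRG.4401.1 KOs and between the wild-type sets. Over all genes, higher and lower, the A549 KOs had 712 and 819 of 25666, and 5329 and 5596 of 24979. The HCT116 KOs had 209 and 166 of 26374, and 2016 and 2320 of 26615. The wild-type sets had 1517 and 1831 of 27280. In the HCT116 MSTRG.4401.1 KO, where 0 passed, no filter gave 1, the other wild type 9 and the fit without S8 and S9 gave 1. In the MSTRG.34636.7 KO, upper-quartile normalization and 1 fit for the line gave 1 each and the other wild type 12, against 2. With that other wild type, 2151 of all 27971 genes tested were called higher and 1908 lower. The interaction count stayed at 22 to 35 against 28. The cause of these moves was not tested.

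Libraries with the same number in the MSTRG.34636.7 KO and WT A had deviation correlations of 0.0117, 0.0178 and 0.0355, each the highest for its number as a hint from the data only. With the replicate block, 2 list genes were called and the metallothionein median was −0.85, while calls over all genes went from 210 higher and 175 lower to 79 and 87. Counts of 0 limit MT1A, MT1E, MT1G, MT1H and MT1M to 0.0293 to 0.116 CPM, and the A549 MSTRG.4401.1 KO libraries are the least precise.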
